A study of Mus musculus with 20 samples.

Results

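Single genes were compared between Katnal2-KO and WT brains at P70, and above all the genes whose KO and WT values did not overlap. Of the 19463 genes in the table, 17613 had a mean of at least 10 normalized counts over the 10 P70 mice and were tested. Among these, 34 genes showed no overlap between the 5 KO and the 5 WT mice, with 17 genes above WT and 17 genes below WT in every KO mouse. Exchangeable labels alone would on average leave a larger share of genes without overlap (below). No gene passed the threshold after adjustment for the number of genes tested.

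RNA was taken from whole brains of male C57BL/6J mice at 10 weeks of age (P70), with 5 Katnal2-KO and 5 WT mice. A further 5 KO and 5 WT mice at 3 weeks (P21) were different animals and served here only as a second comparison. The KO line came from ES cells with the allele Katnal2tm1a(EUCOMM)Wtsi, crossed into C57BL/6J for more than 5 generations, then to Protamine-Flp mice, and treated at an early embryonic stage with HTNC, a Cre recombinase that enters cells. The resulting germline allele lacks a coding exon and shifts the reading frame in all tissues, so that the loss is not restricted to a cell type or an age. The labels do not tie mice to litters.

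Katnal2 belongs to the katanins, ATPases that sever or regulate microtubules, the hollow tubulin filaments that form the core of cilia and the tracks of axons. The gene has been linked to autism spectrum disorder. Ependymal cells, which line the ventricles, carry motile cilia that move the cerebrospinal fluid, and a whole-brain library averages these few cells with neurons, glia, vessels and choroid plexus, and fewer cells of a type and less RNA per cell cannot be told apart in it.

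The P70 libraries were not alike. The replicate 5 mice of both groups stood apart on the first principal component, which held 38.46% of the variance, at 68.78 (KO) and 50.45 (WT) against -20.16 to -6.93 in the other 8 mice. In these mice, the shortest 20% of genes were, in the median, higher than in the other mice of the group by 0.291 and 0.281 on the log2 scale, and the longest 20% were lower (-0.322 and -0.258). The spacing of low values gave a depth of about 23400000 to 24600000 reads in the other 8 mice, and was blurred in the replicate 5 mice. Counts that rest on these 2 mice are given below with and without them.

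Katnal2 itself, the targeted gene, had 104.4, 95.1, 100.3, 100.4 and 125.5 normalized counts in the KO mice and 109.8, 141.5, 101.3, 125.1 and 132.5 in the WT mice. The groups overlapped, since KO replicate 5 was above 3 of the WT mice and KO replicate 1 was above WT replicate 3. On average, KO mice had 105 ± 11.8 and WT mice 122 ± 16.4 (SD, n = 5 each; exact two-sided permutation test, p = 0.0794, where 5 against 5 mice cannot give less than 0.00794). At P21, Katnal2 showed no overlap, with 78.1 to 96.0 normalized counts in KO and 99.3 to 115.4 in WT mice. Its log2 difference there was -0.27 (SE 0.10, limma, unadjusted p = 0.0208), and 0 genes passed adjustment at P21. A value summed over a gene does not resolve the deleted exon, so the level at either age is no check of the labels.

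The 34 genes without overlap made up 0.193% of the genes tested, with 0.0965% above WT and 0.0965% below WT. If the labels of the mice were exchangeable, a gene would show no overlap with a probability of 0.00794. This is the smallest p that the exact two-sided permutation test given for Katnal2 can reach. The observed share was lower, so the number of these genes does not by itself set them apart by genotype. Because these genes were chosen by their P70 values, their P70 differences and p-values describe them and support nothing further. In the fit across all genes (limma on log2(value + 1)), 27 of the 34 had an unadjusted p under 0.05, as did 1.13% of all genes tested (199 genes, 0.59% higher and 0.539% lower in KO). The remaining 172 of the 199 genes had overlapping groups. After Benjamini-Hochberg adjustment, 0 genes passed 0.05 (0.0% of those tested), and the smallest adjusted p was 1.00 (limma). When both replicate 5 mice were left out, 375 genes (2.13%) showed no overlap between 4 and 4 mice, 651 (3.7%) had an unadjusted p under 0.05, and 1 passed adjustment.

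**Figure D1:**
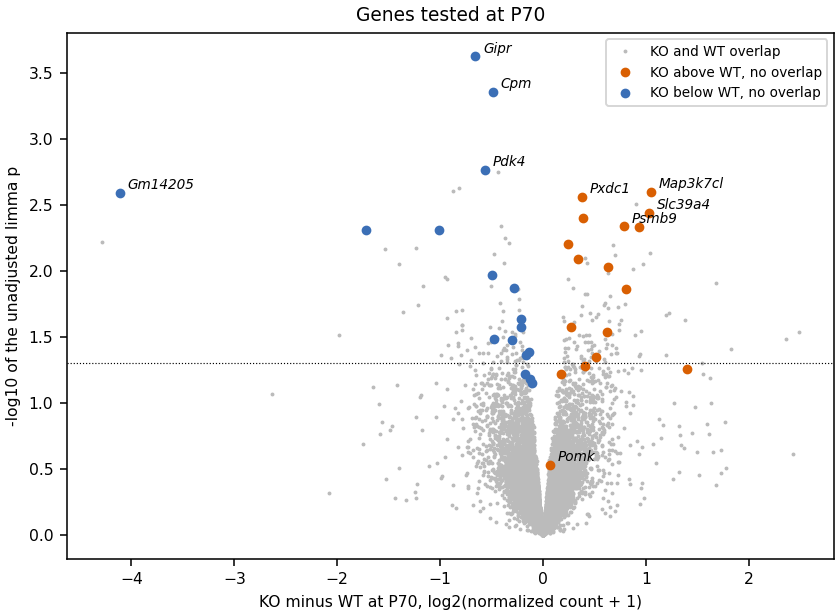
Each point is 1 of the 17613 genes tested at P70, with the KO minus WT difference on the log2(normalized count + 1) scale on the x axis and -log10 of the unadjusted limma p on the y axis. Colored points are the 34 genes without overlap, most of which lie above the dotted line (unadjusted p of 0.05), and Pomk lies farthest below it.

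Differences were mostly small. On the log2 scale, genes above WT differed by 0.07 to 1.40 (median 0.51), and those below WT by -0.11 to -4.11 (median -0.30), against a median of -0.005 over all genes tested. Past a 1.5-fold difference were 8 of the genes above WT and 4 of those below. The genes above WT were often weakly expressed, with a P70 mean under 50 normalized counts in 10 of 17 genes, whereas 3 of the 17 genes below WT and 19.5% of all genes tested had such a mean. The minimum of 10 was set on the mean of both groups, so Map3k7cl, Slc13a1, Amy2a4 and 9330121J05Rik passed it only through the group in which they were higher. The annotation called 15 genes on each side protein coding, and the genes lay on 17 chromosomes, with at most 3 on any of them. Within 10 Mb of Katnal2, where DNA of the targeted ES cells would be carried along in a backcross, 94 genes were tested. Of these, 0 showed no overlap (0.193% of all genes tested). 1 had an unadjusted p under 0.05 (limma, 1.06%, against 1.13% of all genes tested). At shares this low, the counts among 94 genes say nothing about such DNA, which was not tested.

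The edge of the criterion was thin. Irf2 was just inside it, where the highest KO mouse had 579.9 and the lowest WT mouse 580.6 normalized counts. Tdp2 was just outside, with KO replicate 3 (448.5) above WT replicate 1 (447.8). Of the genes without overlap, 13 more had a mean under 10 and were not tested, among them Foxd2os with a mean of 9.36. The mouse nearest to the other group was KO replicate 4 or 5 in 10 genes each, and WT replicate 1 in 10.

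**Figure D2:**
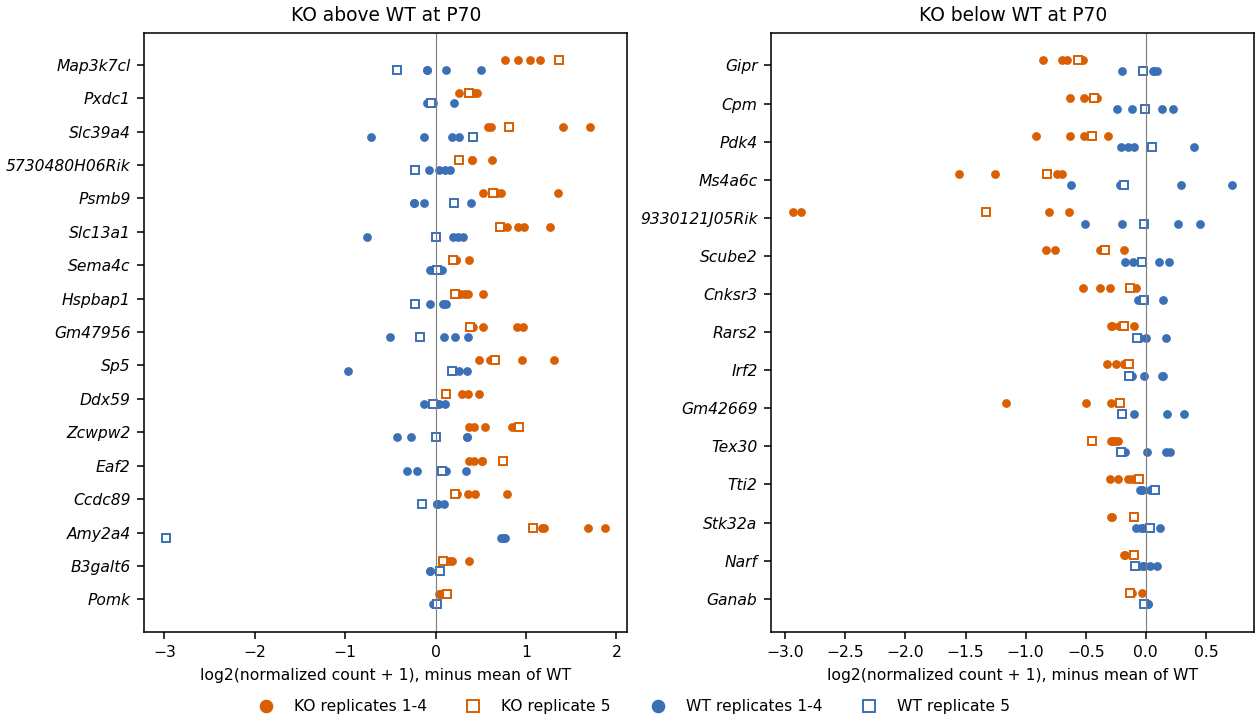
Each row is a gene without overlap at P70 (32 of 34; Gm14205, which is listed at 0 in 3 KO mice, and 1 gene not reported here are left out), and each point is a mouse, as log2(normalized count + 1) minus the mean of the WT mice. Squares are the replicate 5 mice. KO and WT points are separate in every row, narrowly in Irf2 and Ddx59, and WT replicate 5 is listed at 0 in Amy2a4.

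Gipr, Cpm and Pdk4 had the smallest unadjusted p (limma) among the genes below WT without overlap. Gipr, the receptor for the gut hormone GIP, had 49.4, 43.0, 54.3, 48.0 and 52.8 normalized counts in the KO mice and 84.0, 82.1, 81.8, 68.2 and 77.3 in the WT mice. All KO mice lay under the lowest WT mouse, which was replicate 4. KO mice averaged 49.5 ± 4.43 and WT mice 78.7 ± 6.38 (SD, n = 5 each), or 0.629 times WT. The log2 difference of -0.66 (SE 0.13) had an unadjusted p of 0.000236 (limma), below that of the other 33 genes, and an adjusted p of 1.00.

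Cpm encodes carboxypeptidase M, a membrane-anchored enzyme that trims arginine and lysine from the ends of peptides. It had 368.6, 396.5, 340.1, 386.6 and 389.3 normalized counts in KO mice, and 486.4, 445.4, 614.0, 578.7 and 523.5 in WT mice. The KO mice were close together and the WT mice more spread, without overlap. Cpm was at 0.71 times WT (376 ± 22.6 against 530 ± 68.1, SD, n = 5 each), a log2 difference of -0.48 (SE 0.10, limma, unadjusted p = 0.000442).

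Pdk4, a kinase that switches off pyruvate dehydrogenase and is induced by fasting and glucocorticoids, had 334.1, 381.9, 307.5, 252.6 and 349.6 normalized counts in KO mice. In WT mice, it had 411.9, 446.1, 430.0, 630.2 and 493.4. The lowest KO value and the highest WT value both belonged to replicate 4, and the groups did not overlap. The log2 difference was -0.56 (SE 0.14, limma, unadjusted p = 0.00171), or 0.674 times WT.

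The stretch ahead of the Cpm start site is shown because Cpm had the smallest p of all genes in the comparison of the ages (below). Its 250 bases before the RefSeq start (GRCm38.p6, chr10:117629250-117629499, plus strand) hold 74.4% G and C, against a median of 52.4% over all promoters in the RefSeq table. Capitals mark GC boxes, the letters GGGCGG on either strand, which occur in 32.7% of all promoters.
Cpm: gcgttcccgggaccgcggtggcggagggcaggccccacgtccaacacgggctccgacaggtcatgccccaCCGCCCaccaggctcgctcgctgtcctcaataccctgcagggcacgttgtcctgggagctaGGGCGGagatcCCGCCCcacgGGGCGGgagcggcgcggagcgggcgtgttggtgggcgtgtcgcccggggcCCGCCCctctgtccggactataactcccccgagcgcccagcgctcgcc
Of the 34 genes, 22 had a promoter in that table, counted once each, and 12 of these 22 held a GC box. The shares of all promoters cover 32851 entries, those of genes not tested here included, so they come from an unlike set. The letters CCAAT occurred in 7 of the 22 (33.8% of all promoters), TATAAA in 2 (12.4%), CACGTG in 2 (6.02%), GTAAACA in 2 (3.17%), TGTTCT in 1 (16.1%) and TGACGTCA in 0 (1.55%), each counted on both strands. These are matches of letters in a window, not binding sites.

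The genes below WT also included Scube2, a secreted protein that helps release Sonic hedgehog from cells. It had 54.3, 47.2, 34.4, 36.1 and 48.6 normalized counts in KO mice, and 54.8, 66.6, 70.9, 57.5 and 60.6 in WT mice. The highest KO mouse and the lowest WT mouse, both replicate 1, nearly met. Cnksr3, a scaffold of the MAP kinase pathway, was at 0.825 times WT, and its highest WT mouse was replicate 3 (596.0, with 514.4 to 533.2 in the other WT mice). Stk32a, a serine/threonine kinase gene and the only one of the 34 on the chromosome of Katnal2, at a distance of 33.8 Mb, was at 0.888 times WT.

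Ms4a6c, a membrane protein gene of the monocyte and macrophage lineage, had 15, 10.2, 8.1, 15.5 and 14.1 normalized counts in KO mice, and 16.4, 22.1, 31.7, 43.0 and 22.6 in WT mice. WT replicate 1 was close to the KO mice, and WT replicate 4 was the highest. Among 18 microglia markers (Cx3cr1, P2ry12, Tmem119 and others), the KO mean was higher in 16 (47.8% of all genes tested), with a median log2 difference of 0.05, 1 of the 18 had an unadjusted p under 0.05 (limma, higher in KO, against 1.13% of all genes tested in either direction), and 0 passed adjustment.

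Genes of gene regulation and protein handling below WT differed by small amounts. Irf2, a repressor of interferon-induced genes, and Rars2, the arginyl-tRNA synthetase of mitochondria, were each at 0.86 times WT. Tti2, a co-chaperone of large kinases such as mTOR and ATM, was at 0.891 times WT, and Tex30 at 0.806 times WT. Narf, which binds prelamin A, and Ganab, a glucosidase of the endoplasmic reticulum, were at 0.913 and 0.926 times WT and had an unadjusted p over 0.05 (limma, 0.0659 and 0.0708). These last 2 genes were named after their values were seen.

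The genes above WT included the transporter genes Slc39a4 and Slc13a1. Slc39a4, or ZIP4, which brings zinc into cells, had 34.8, 77.7, 35.8, 63.0 and 41.2 normalized counts in KO mice, and 20.9, 27.7, 26.2, 13.6 and 31.0 in WT mice. KO replicates 2 and 4 were far above the other KO mice, whose values began shortly above WT replicate 5. The mean was 2.12 times WT (log2 difference 1.03, SE 0.28, limma, unadjusted p = 0.00365). Slc13a1, a sodium-dependent sulfate transporter best known from the kidney, was at 1.95 times WT, with 15.9 to 23.9 normalized counts in KO and 5.1 to 11.8 in WT mice.

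Slc39a4 was in the list of 30 choroid plexus genes, the tissue that makes cerebrospinal fluid. The KO mean was higher in 28 of the 30 genes (47.8% of all genes tested), with a median log2 difference of 0.14. Of the 30, 1 (Slc39a4) had an unadjusted p under 0.05 (limma, 1.13% of all genes tested), as did 7 without both replicate 5 mice (3.7%), all 7 higher in KO, and 0 passed adjustment either way. At P21, the KO mean was higher in 29 of the 30 genes (52.3% of all genes tested), with a median of 0.21. The summed level of the list was 31967 to 47723 in KO and 29055 to 48876 normalized counts in WT mice, which overlap. Ttr, its most abundant gene, had 20351, 23712, 24257, 13843 and 25188 in KO mice, and 11547, 19833, 14613, 11028 and 24828 in WT mice. In the WT mice, Slc39a4 and Ttr rose in the same order, from replicate 4 through 1, 3 and 2 to replicate 5. In the KO mice the order was not shared, and replicate 4, with the second highest Slc39a4, had the lowest Ttr. The part of choroid plexus content in the Slc39a4 difference was not tested.

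The genes above WT also included Sema4c, a membrane semaphorin that binds plexin-B2. It had 536.7, 537.9, 524.5, 594.4 and 524.2 normalized counts in KO mice, and 438.1, 481.5, 441.8, 467.4 and 462.6 in WT mice. Every KO mouse was clear of the WT range, and KO replicate 4 was set apart upward. Sema4c was at 1.19 times WT (log2 difference 0.25, SE 0.07, limma, unadjusted p = 0.00621).

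Map3k7cl, named for its likeness to the end of the kinase TAK1, had 11.4, 14.0, 12.7, 15.2 and 17.8 normalized counts in KO mice, and 5.8, 6.9, 5.8, 9.3 and 4.4 in WT mice. The groups were separate at a level of few reads. Its mean was 2.21 times WT (log2 difference 1.05, SE 0.28, limma, unadjusted p = 0.00251), the smallest p among the genes above WT. Sp5, a transcription factor induced by Wnt signaling, was at 1.73 times WT, with 29.6 to 53.7 normalized counts in KO mice, and with 23.9 to 27.0 in WT mice other than replicate 4 (10.2).

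Pxdc1, which carries a PX domain, the fold of phosphoinositide-binding proteins, had 161.0, 143.6, 164.9, 154.4 and 154.9 normalized counts in KO mice, and 138.0, 116.8, 112.2, 117.4 and 115.8 in WT mice. WT replicate 1 stood apart toward the KO mice, without reaching them. The log2 difference was 0.38 (SE 0.10, limma, unadjusted p = 0.00274), or 1.30 times WT.

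Psmb9, a catalytic subunit of the immunoproteasome, had 46.8, 25.8, 28.9, 29.9 and 28 normalized counts in KO mice, and 23.6, 14.9, 16.1, 14.8 and 20.6 in WT mice. KO replicate 1 was high, and WT replicate 1 was nearest to the KO mice. The mean was 1.77 times WT (log2 difference 0.78, SE 0.22, limma, unadjusted p = 0.00459). Among the 23 interferon response genes tested, the KO mean was higher in 10 (47.8% of all genes tested), and the median log2 difference was -0.006. Only Psmb9 had an unadjusted p under 0.05 (limma, 1.13% of all genes tested). Psmb8, which encodes another immunoproteasome subunit, was at 48.8 ± 12.0 in KO mice and at 51.8 ± 24.8 in WT mice (in normalized counts ± SD, n = 5 each), and overlapped. The annotated spans of Psmb9 and Tap1, on opposite strands, share 212 bases. Larger overlaps of this kind, introns included, include those of Eaf2 (with Iqcb1, 44337 bases), Ms4a6c (with BE692007, 12027 bases) and Tti2 (with Mak16, 5240 bases). Others are those of Gm42669 (with Glmn, 31630 bases), 5730480H06Rik (with Kcnip4, 24793 bases), Gm47956 (with 4930430F08Rik, 6286 bases) and Zcwpw2 (with Gm26614, 5203 bases).

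Of the remaining named genes above WT, Hspbap1, a partner of a small heat shock protein, was at 1.27 times WT, and Ddx59, an RNA helicase gene mutated in an orofaciodigital syndrome, was at 1.21 times WT. Ddx59 was just inside the criterion, at 157.4 in KO replicate 4 and 157.1 in WT replicate 3. Eaf2, a transcription elongation factor, and Ccdc89 were at 1.45 and 1.36 times WT with means of 10.9 to 24.6 normalized counts. B3galt6 and Pomk, which add sugar or phosphate to the glycans of proteoglycans and dystroglycan, were at 1.13 and 1.05 times WT and were named after their values were seen. Pomk had 812.1 to 862.1 normalized counts in KO and 775.2 to 799.4 in WT mice, a log2 difference of 0.07 with an unadjusted p of 0.294 (limma).

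**Figure D3:**
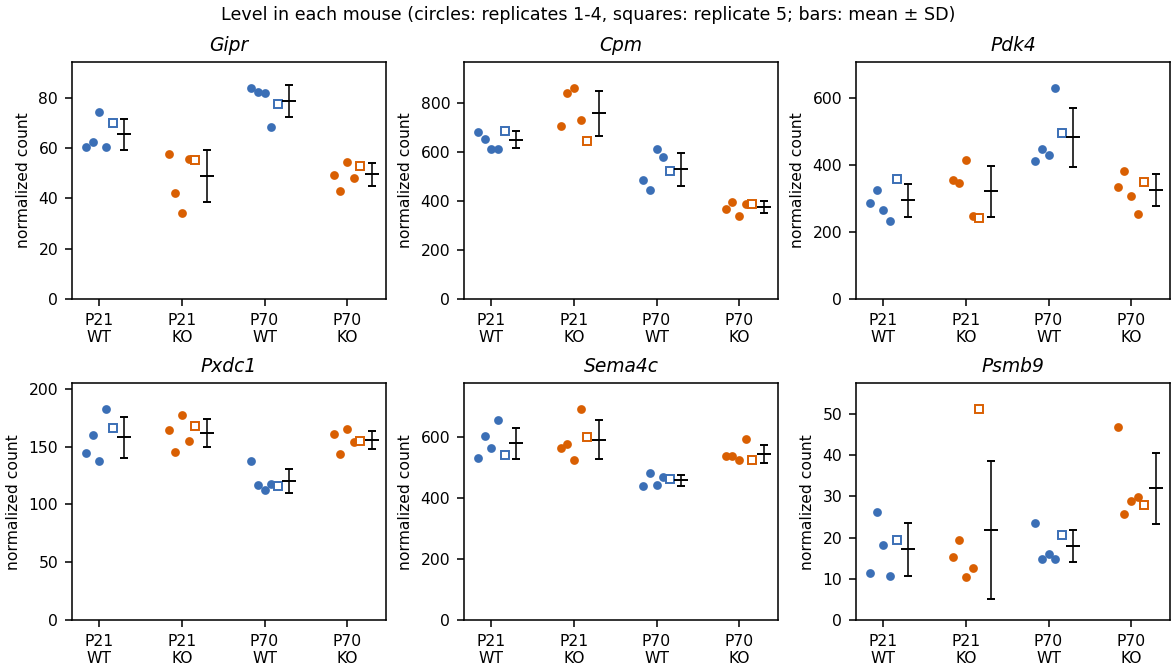
Normalized counts (y axis, from 0) of Gipr, Cpm, Pdk4, Pxdc1, Sema4c and Psmb9 in each mouse of the 4 groups, with circles for replicates 1 to 4, squares for replicate 5, and bars for the mean ± SD. Gipr is lower in KO at both ages, and the other 5 genes are separate at P70 and overlap at P21.

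Some genes without overlap shared sequence with other genes, and their values depend on how reads were divided. Apart from Amy2a4, they were named after their values were seen. Gm14205 had the most negative log2 difference (-4.11, SE 1.08), with 33.1, 0, 0, 35.9 and 0 normalized counts in KO mice, and 90.6, 52.7, 97.2, 107.7 and 36.1 in WT mice. It is listed at 0 in 3 KO mice, and KO replicate 4 nearly reached WT replicate 5. All 911 bases of its span lie within Slc32a1, the GABA vesicle transporter gene, on the opposite strand, and the library kit does not mark strand. Slc32a1 itself was at 4162 ± 748 in KO mice and at 4095 ± 394 in WT mice (in normalized counts ± SD, n = 5 each). 9330121J05Rik, with 1.1 to 9.3 normalized counts in KO and 10.3 to 21.0 in WT mice, likewise overlaps Arhgef26 on the opposite strand, over 2189 bases.

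Amy2a4, a pancreatic amylase gene, had 28, 16.8, 24.4, 17.1 and 15.7 normalized counts in KO mice, and 12.4, 12.2, 12.3, 12.0 and 0 in WT mice. WT replicate 5 set the size of its log2 difference, which was 1.40 with this mouse and 0.66 without it. Its reference transcript is identical over 3717 bases to those of Amy2a2 and Amy2a3, which were not analysed here. Gm42669, a predicted gene, shares 43.6% of its transcript with Btbd8, and its log2 difference was -0.48, or -0.31 without KO replicate 4. Zcwpw2, annotated as a pseudogene, was at 1.57 times WT with means of 18.1 and 11.6 normalized counts. The 2 others, 5730480H06Rik and Gm47956, were at 1.31 and 1.56 times WT.

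The P21 mice, which the choice of genes did not use, showed the P70 direction in 19 of the 34 genes (55.9%), against 51.2% of all genes tested. Of the 17 genes above WT at P70, 11 were above WT on average at P21, and of the 17 below, 8 were below. The median log2 difference at P21 was 0.03 for either set of genes. By themselves, the P21 mice gave 80 genes without overlap (0.454%) and 430 with an unadjusted p under 0.05 (limma, 2.44%). Of the 34 genes, Gipr had such a p at P21 in the same direction, and Cpm and 9330121J05Rik in the opposite direction.

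Gipr was the only gene without overlap in the same direction at both ages (0.00568% of the genes tested). Exchangeable labels (a probability of 0.00794 at each age) could leave 1 such gene among 17613, so this does not by itself set Gipr apart by genotype. At P21, it had 57.4, 42.1, 34.1, 55.6 and 55.1 normalized counts in KO mice, and 60.4, 62.2, 74.2, 60.2 and 69.8 in WT mice. KO replicates 2 and 3 were low, and the other KO mice lay shortly under the WT mice. The log2 difference at P21 was -0.43 (SE 0.16, limma, unadjusted p = 0.0176, adjusted p = 1.00), and the P70 minus P21 difference of -0.23 (SE 0.20) did not pass the test of the interaction (limma, unadjusted p = 0.264, adjusted p = 1.00).

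Cpm had the opposite sign at P21, with 708.0, 843.1, 864.5, 731.5 and 646.4 normalized counts in KO mice, and 682.8, 655.7, 614.4, 614.1 and 687.0 in WT mice. The groups overlapped through KO replicate 5. Its log2 difference was 0.21 at P21 (SE 0.08, limma, unadjusted p = 0.0198) and -0.48 at P70. The change of -0.70 from P21 to P70 (SE 0.13) had the smallest p of all 17637 genes in the age by genotype interaction, and did not pass adjustment (limma, unadjusted p = 2.47e-05, adjusted p = 0.435).

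Over all genes, 0 passed adjustment in the interaction (limma) and 1.68% had an unadjusted p under 0.05. Of the 34 genes, 14 did, a share that the choice by P70 values affects. 9330121J05Rik had an opposite difference at P21 (0.87, SE 0.40, limma, unadjusted p = 0.0485), which was 0.56 without P21 WT replicate 1 (unadjusted p = 0.129). Ms4a6c was likewise above WT on average at P21 (0.70, SE 0.40, limma, unadjusted p = 0.102). This difference was 0.53 without P21 WT replicate 2 (limma, unadjusted p = 0.222) and 1.08 without P21 KO replicate 5 (unadjusted p = 0.00173). Slc39a4 had 16.2, 49.7, 17.4, 16.2 and 11.9 normalized counts in KO mice at P21, and 16.2, 12.1, 11.4, 5.6 and 15.4 in WT mice. KO replicate 2 was far above the others, and the log2 difference of 0.71 (SE 0.37, limma, unadjusted p = 0.0784) was 0.38 without it (unadjusted p = 0.227). In Sema4c, Pxdc1, Scube2, Sp5 and Ddx59, the P21 difference was 0.01 to 0.04 on the log2 scale, with SEs from 0.08 to 0.23.

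**Figure D4:**
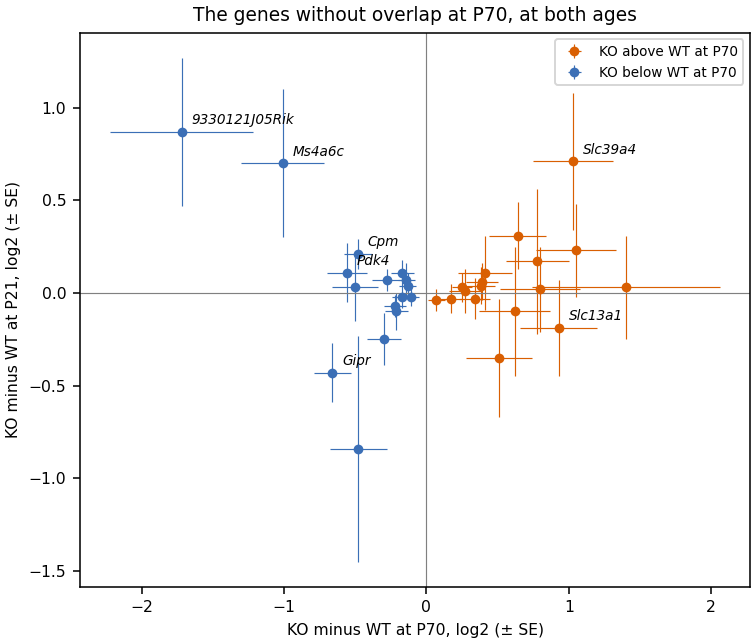
KO minus WT difference on the log2 scale at P70 (x axis) and at P21 (y axis), with SEs as bars, for 33 of the 34 genes without overlap at P70 (Gm14205 left out). The points spread on both sides of 0 on the y axis. Cpm, Ms4a6c and 9330121J05Rik are below WT at P70 and above it at P21, and Gipr is below WT at both ages.

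Pdk4 was in the list of 20 glucocorticoid-induced genes (Fkbp5, Sgk1, Tsc22d3 and others), and the KO mean at P70 was lower in all 20 genes tested (higher in 47.8% of all genes tested), with a median log2 difference of -0.41. Pdk4 and Ddit4 had an unadjusted p under 0.05 (limma, 1.13% of all genes tested), as did 12 of the 20 genes without both replicate 5 mice (3.7%), and 0 passed adjustment either way. The summed level was 35648, 38489, 30021, 25880 and 52359 normalized counts in KO mice, and 35908, 38556, 45713, 45065 and 54848 in WT mice. KO replicate 4 was lowest and the replicate 5 mice highest, and the groups overlapped. At P21, the KO mean was higher in 19 of these 20 genes (52.3% of all genes tested), with a median of 0.11. Among 17 genes of the mitochondrial metabolic switch that also hold Pdk4, the KO mean at P70 was higher in 5 (47.8% of all genes tested), with a median of -0.039. Of the other lists examined, none held a gene without overlap, against a share of 0.193% of all genes tested, at which few would be found.

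A last gene, named after its values were seen, was separate only once the replicate 5 mice were left out. mt-Nd3, a mitochondrial gene for a subunit of complex I, had 6606, 8193, 6559, 8275 and 8037 normalized counts in KO mice, and 10833, 10107, 10878, 11115 and 7986 in WT mice. WT replicate 5 lay among the KO mice, and the other 4 WT mice were above all KO mice. Its log2 difference was -0.43 (limma, unadjusted p = 0.00179, adjusted p = 1.00), and -0.54 without both replicate 5 mice (unadjusted p = 2.11e-05, adjusted p = 0.186).

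The nuclear genome holds a copy of this gene, Gm28438, on chromosome 1 (GRCm38, chr1:24612775-24613119, minus strand), within a longer insertion of mitochondrial DNA. Over the 345 bases compared with mt-Nd3 (chrM:9459-9806, plus strand), 344 are identical, and the single difference is T3C (the base of mt-Nd3, its position counted from the start of the transcript, and the base of Gm28438). The first 60 bases of each, from the reference transcripts, are shown because they hold that base, which is in capitals.
mt-Nd3: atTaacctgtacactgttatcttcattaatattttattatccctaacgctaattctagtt
Gm28438: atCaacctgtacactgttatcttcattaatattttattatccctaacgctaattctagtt

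Gm28438 had the reverse pattern, with 6363, 7775, 6562, 5702 and 7532 normalized counts in KO mice, and 3623, 3532, 3118, 4109 and 9285 in WT mice. Again only WT replicate 5 was out of order, above all KO mice. Gm28438 was the gene that passed adjustment when both replicate 5 mice were left out (log2 difference 0.87, limma, adjusted p = 0.027). Summed over both genes, KO mice had 14321 ± 1383 and WT mice 14917 ± 1443 (in normalized counts ± SD, n = 5 each; exact two-sided permutation test, p = 0.5).

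The share of the sum assigned to Gm28438 was 40.8% or more in every KO mouse, 22.3% to 27.0% in WT replicates 1 to 4 and 53.8% in WT replicate 5 (exact two-sided permutation test, p = 0.0476, n = 5 each). At P21, the share was 12.1% to 28.6% in KO and 0% to 31.0% in WT mice (exact two-sided permutation test, p = 0.857, n = 5 each). At P70, the division of the reads between the genes differed between the KO mice and WT replicates 1 to 4, while the sum of both genes differed by less than the spread between mice. Both genes were picked by their P70 values, so their unadjusted and permutation p-values at P70 describe them and support nothing further. Since 1 base separates these transcripts, a read with C at that position would match Gm28438 whichever genome it came from, so a base difference in the mitochondrial DNA and a difference in level cannot be told apart in these values. The base carried by the reads of each mouse was not tested.

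**Figure D5:**
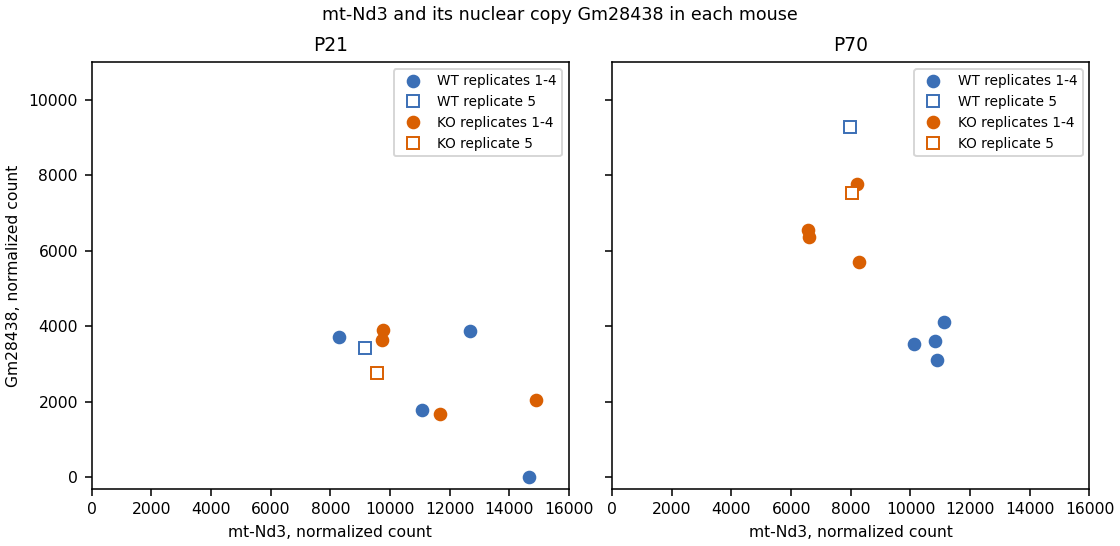
Normalized counts of mt-Nd3 (x axis) and of its nuclear copy Gm28438 (y axis) in each mouse at P21 (left) and P70 (right). At P70, the KO mice and WT replicate 5 lie at upper left and WT replicates 1 to 4 at lower right, and at P21 the groups are mixed.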

How the data were processed

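Whole-brain poly-A RNA-Seq of 5 mice per group was used. The authors quantified transcripts with Salmon 1.1.0 (GRCm38, corrected for GC bias), summed them per gene with tximport and scaled them with DESeq2 (1.26.0 in R 3.6.2, per the labels), and the deposited signal values are these normalized counts. Such values already carry a scaling per gene and mouse, so count tests were not used, and depth is approximate.

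The P70 mice were fitted with limma 3.58.1 in R 4.3.3 (lmFit, eBayes, trend by mean level). Values entered as log2(value + 1), genes with a P70 mean under 10 were left out, and p-values were adjusted over all remaining genes by Benjamini-Hochberg (threshold 0.05). The added 1 shrinks the differences of low genes. Mice listed at 0 can instead make a difference larger than the ratio of the means. This is so in Gm14205 (log2 difference -4.11, mean 0.179 times WT) and Amy2a4 (1.40, mean 2.09 times WT). Two-sided exact permutation tests were used for single values. The interaction used all 20 mice. The fit was tested on simulated data. 19447 of the 19463 IDs matched GENCODE M21 (GRCm38), transcripts were compared with BLAST 2.17.0, and promoters came from RefSeq (GRCm38.p6).

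A gene showed no overlap where all KO values lay above, or all below, the WT values. Named genes were Katnal2, then the 12 above and 12 below WT with the smallest p and the 3 with the largest difference on each side, both among protein-coding genes whose symbol is not a clone or prediction name (such as Gm or Rik), genes past adjustment, members of gene lists and genes without overlap at both ages. Others are said to be named after their values were seen. 1 gene of the rule is not reported here. The genes and lists were chosen with earlier results of these data known. Replicates are separate mice, and the labels do not say whether replicate numbers mark a litter or batch. Alternatives were another pseudocount, filter, normalization or set of mice, array weights, no trend, and the replicate block.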

Additional observations from a re-analysis of the deposited data

Results flagged for a closer look

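Among the genes without overlap and Katnal2, 70 groups of 5 P70 mice were examined for a value set apart from the other 4, and 8 had one, where chance alone sets apart about 1 in 20 groups. In the WT group, these were Cnksr3 in replicate 3 (596.0 normalized counts, with 514.4 to 533.2 in the others), Rars2 in replicate 3 (441.5, with 373.2 to 392.9), Pxdc1 in replicate 1 (138.0, with 112.2 to 117.4), Sp5 in replicate 4 (10.2, with 23.9 to 27.0) and Amy2a4 in replicate 5 (0, with 12.0 to 12.4). In the KO group, they were Ganab in replicate 4 (3285, with 3034 to 3086), Sema4c in replicate 4 (594.4, with 524.2 to 537.9) and Psmb9 in replicate 1 (46.8, with 25.8 to 29.9). In Pxdc1 and Ganab, the value set apart was on the side of the other group, and in the other 6 genes it was on the far side. The choice of genes without overlap had already removed most values that reach toward the other group. Neither these sides nor the rate of 1 in 20, which holds for unselected groups, can therefore be read as a result.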

How the results depend on the processing

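Katnal2 and the 34 genes without overlap kept their direction and their side of the adjusted threshold under the alternatives run (with a mean of at least 50, those still tested), including leaving out each mouse in turn. The P21 differences given for Gipr, Cpm, Slc39a4, Ms4a6c and 9330121J05Rik kept their sign without each P21 mouse in turn, an alternative chosen after seeing the data. Counts were less stable. Genes with an adjusted p under 0.05 numbered 0 under every alternative other than leaving out both replicate 5 mice (1). Genes with an unadjusted p under 0.05 (199) numbered 855 with array weights, 610 with the replicate block, 635 with the block and the length and GC trend subtracted (an alternative chosen after seeing the data), 328 with that trend subtracted alone, 338 with all 20 mice in 1 fit, 108 with a mean of at least 50, 651 without both replicate 5 mice and 161 to 517 without each mouse in turn (517 without KO replicate 5, 378 without WT replicate 5). Genes above WT without overlap (17) numbered 7 with a mean of at least 50, 28 with the trend subtracted, 162 without both replicate 5 mice and 32 to 94 without each mouse. Genes below WT (17) numbered 213 without both and 32 to 120 without each mouse. Fewer mice make no overlap more frequent by construction. Of the 34 genes, 26 still showed no overlap after quantile normalization and 12 after the trend was subtracted. Genes in the same direction at P21 (19) numbered 11 with a mean of at least 50, 189 without both replicate 5 mice and 29 to 112 without each mouse, or 38.2% to 57.7% of the genes without overlap under each alternative. Genes without overlap at both ages (1) numbered 2 without both and 1 to 2 without each mouse. In the interaction, 0 genes passed adjustment under each alternative, and 710 had an unadjusted p under 0.05 with the block, against 296.

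Deviations of same-numbered P70 mice correlated at 0.1616 to 0.7091 in 4 pairs, whose KO mice each correlated best with their own number, and at 0.0622 in pair 1, whose KO mouse did not. The numbers were therefore not taken to pair the mice, although the data leave a hint of it. With the replicate block, the unadjusted p of Ttr, which was higher in the KO mouse of all 5 same-numbered pairs, was 0.00166 in place of 0.088 (limma), with an adjusted p of 1.00 in both fits. With 5 mice per group, values near 10 normalized counts rest on few reads.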
